A study of Mus musculus with 12 samples.

Results

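The circadian clock genes described here were 10 genes chosen by name. They were the activators Arntl (also called Bmal1) and Clock, the repressors Per1, Per2, Per3, Cry1 and Cry2, the nuclear receptors Nr1d1 and Nr1d2 (REV-ERBα and REV-ERBβ), and the output factor Dbp. All 10 were found among the 36008 genes of the deposited expression table, and all 10 were among the 10481 genes tested. A gene was tested where its level was above 5 TPM (a unit of transcript level scaled for transcript length and for library) in at least 1 of the 12 libraries.

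Of 6 female mice, both the gastrocnemius and the quadriceps of the left hind limb were sequenced, with 1 library per muscle and mouse. The mice were 30 weeks old at the start, and the labels name the strain C57BL/6 while the methods of the study name BALB/c. The 3 flight mice (M11, M12 and M20) spent 9 weeks in microgravity on a space station, and the 3 ground control mice (M02, M03 and M08) spent them in the same hardware on Earth, which made 4 groups of 3 libraries. All 6 mice received injections of phosphate-buffered saline every 2 weeks, and all carcasses were frozen and later thawed on ice for dissection. The time of day at death is not given in the sources used here. Flight mice were killed in orbit and ground controls on Earth, so a difference in the hour of death and a difference due to flight cannot be told apart.

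The clock is a feedback loop that runs in nearly every cell, including the muscle fiber. The ARNTL and CLOCK proteins bind E-box sequences as a pair and switch on the Per, Cry, Nr1d and Dbp genes. PER and CRY proteins return to the nucleus and block the pair, while REV-ERB proteins repress Arntl and the related ROR receptors activate it. The transcripts therefore peak at different hours: in rodent muscle, Arntl runs roughly opposite to the Per genes and Dbp. A single sampling of each animal, as here, gives a level at one unknown hour and no amplitude or phase.

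Promoter sequence was read for the clock genes because these short elements define the loop. RefSeq promoters on GRCm38.p6, from 250 bases before to 50 bases after each start, were held for 9 of the 10 genes with 13 starts between them. None was held for Per2. The E-box CACGTG, its variant CACGTT, the D-box TTATGTAA or TTACGTAA that DBP binds, and the element TAGGTCA that REV-ERB and ROR proteins bind were searched on both strands, and no matches in the clock genes overlapped. Of all 32851 promoters, 7.15% held CACGTG, 4.68% CACGTT, 1.06% a D-box and 2.61% TAGGTCA. Among the clock genes CACGTG stood before the starts of Per1 and Cry1, CACGTT before those of Cry1, Cry2 and Nr1d1, and a D-box, in 2 copies, before that of Per3. Arntl held TAGGTCA 31 bases after a start. The windows of Clock, Nr1d2 and Dbp held none of these letters, which says nothing of elements outside them. The stretches below, 5′ to 3′ on the gene's strand, carry the elements in capitals.

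Per1 (chr11:69098768-69098803, plus strand): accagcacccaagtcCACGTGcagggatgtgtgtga
Cry1 (chr10:85185094-85185148, minus strand): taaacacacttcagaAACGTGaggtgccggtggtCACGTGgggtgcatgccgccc
Cry2 (chr2:92434215-92434250, minus strand): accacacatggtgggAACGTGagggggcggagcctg
Nr1d1 (chr11:98775385-98775420, minus strand): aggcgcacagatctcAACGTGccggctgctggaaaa
Per3 (chr4:151044801-151044885, minus strand): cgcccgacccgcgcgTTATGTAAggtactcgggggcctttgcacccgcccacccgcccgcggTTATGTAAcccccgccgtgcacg

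AACGTG is CACGTT read on the other strand. The E-box of Per1 began 166 bases before its start, and that of Cry1 began 60 bases before.

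Because TPM is a level per length, the genes can be ranked within a library. Averaged over the 12 libraries, Nr1d2 was the most abundant at 96.7 TPM, followed by Dbp at 83.1, Per1 at 60.1, Nr1d1 at 43.6, Per3 at 27.4, Cry2 at 22.1, Per2 at 16.4, Clock at 11.2, Cry1 at 6.35 and Arntl at 4.06 TPM. Neighbours in this order overlapped over the 12 libraries in 8 of 9 pairs, and Clock and Cry1 alone did not, the lowest Clock value being 9.13 TPM and the highest Cry1 value 7.27 TPM. Per3 was above Cry2 in all 12 libraries although their ranges touched. The activators were thus at the low end of the list: 6.44% of the genes tested had a lower mean than Arntl. Arntl passed the filter on low values solely through both libraries of flight mouse M11, its other 10 values being below 5 TPM.

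Levels also differed in how far they ranged. The highest of the 12 values was 3.49 times the lowest for Per2, 3.11 times for Nr1d1 and 2.15 times for Per1. It was 1.94 times the lowest for Arntl, 1.60 for Cry1 and 1.59 for Clock. The narrowest were Dbp at 1.40 times, Cry2 at 1.35, Nr1d2 at 1.26 and Per3 at 1.24.

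**Figure D1:**
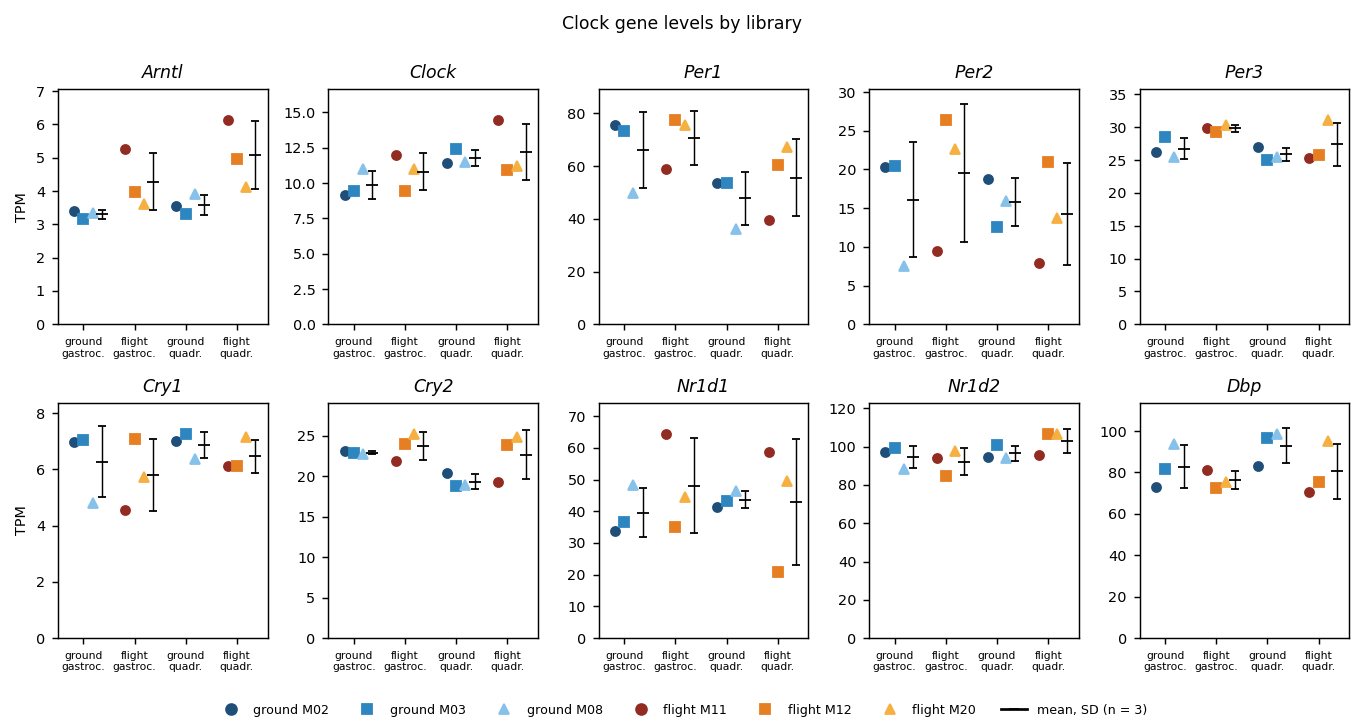
Levels of the 10 clock genes in TPM (vertical axes, from 0) in the 4 groups, with 1 point per library coloured by mouse and the mean ± SD of 3 mice in black. The 3 flight points of Arntl lie above the 3 ground points in both muscles, and Per1 and Per2 of mice M08 and M11 are low in the gastrocnemius.

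The flight groups were compared with the ground controls within each muscle, and again after averaging both muscles of a mouse, to see whether 9 weeks of microgravity went with another level of any clock gene. A gene was called where limma on log2(TPM + 1) gave an adjusted p below 0.05 together with over 1.5-fold change, and none of the 10 met this in the 3 comparisons. Over all 10481 genes, 0.229% were called for the gastrocnemius, 0.0286% for the quadriceps and 0.124% for the mean of both. None of the 10 had an unadjusted p under 0.05 either, while 15.1% of all genes did for the gastrocnemius, 10.8% for the quadriceps and 18.0% for the mean. The 95% interval of the difference lay within 1.5-fold in both directions for 7 of the 10 genes in the gastrocnemius and for 6 in the quadriceps, 0.585 being that fold on the log2 scale. For Arntl, Per2 and Nr1d1 it reached past 1.5-fold in both muscles, and for Per1 in the quadriceps.

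Arntl, the activator without which the loop stops, had a higher mean in flight in both muscles. In the gastrocnemius it was at 3.41, 3.16 and 3.35 TPM in ground mice M02, M03 and M08 and at 5.25, 3.98 and 3.61 TPM in flight mice M11, M12 and M20. In the quadriceps the ground values, in the same order, were 3.54, 3.32 and 3.91 TPM and the flight values 6.14, 4.97 and 4.13 TPM. Every flight value was above every ground value of its muscle, and M11 was the highest in both. Groups that did not overlap, with flight higher, were seen for 12.5% of all genes in the former muscle and 9.24% in the latter, and 6.0% of all genes did not overlap in the same direction in both muscles. Arntl was among the genes tested because of the high values of M11, so its lack of overlap is a description and is not weighed against these shares. The log2 difference was 0.28 (SE 0.16, limma adjusted p = 0.424) in the gastrocnemius and 0.39 (SE 0.17, adjusted p = 0.477) in the quadriceps. For the mean of both muscles it was 0.34, with a 95% interval of -0.01 to 0.69, an unadjusted limma p of 0.0558 and an adjusted p of 0.288, so the difference did not pass the test. With a filter of 1 TPM, which Arntl passed in all 12 libraries, the adjusted p was 0.4601 in the gastrocnemius, 0.552 in the quadriceps and 0.312 for the mean. Without M11 the difference was 0.15 in the gastrocnemius and 0.27 in the quadriceps.

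Clock, the partner of Arntl, was at 9.87 ± 1.00 TPM on the ground and 10.8 ± 1.28 in flight in the gastrocnemius (SD, n = 3), and at 11.8 ± 0.56 and 12.2 ± 1.98 in the quadriceps. The groups overlapped in both muscles, and M11 had the highest Clock value in each, 11.99 and 14.5 TPM. The log2 differences of 0.12 and 0.04 were smaller than their 95% half-intervals.

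Among the repressors, Per1 and Per2 respond quickly to hormones and light as well as to the loop. In the gastrocnemius Per1 was at 75.4, 73.3 and 49.7 TPM in ground mice M02, M03 and M08 and at 59.0, 77.6 and 75.7 TPM in flight mice M11, M12 and M20. The quadriceps gave 53.6, 53.6 and 36.1 TPM on the ground and 39.4, 60.4 and 67.2 TPM in flight. M08 and M11, 1 mouse of each condition, were the lowest and second lowest in both muscles, so the spread lay within the groups rather than between them. The log2 difference of Per1 was 0.11 (95% interval -0.31 to 0.52) in the gastrocnemius and 0.20 (-0.35 to 0.75) in the quadriceps.

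Per2 in the gastrocnemius showed the same pair of low mice, with 20.3, 20.5 and 7.56 TPM on the ground and 9.47, 26.4 and 22.7 TPM in flight. In the quadriceps M11 was again lowest at 7.96 TPM, but M08 at 15.9 TPM lay between M02 at 18.8 and M03 at 12.6 TPM, and the other flight mice M12 and M20 had 21.01 and 13.7 TPM. Its log2 difference was 0.27 in the gastrocnemius and -0.22 in the quadriceps, with the widest intervals of the 10 genes in the gastrocnemius (-0.79 to 1.32). The gastrocnemius difference was -0.18 without M08 and 0.69 without M11, and the quadriceps difference was 0.12 without M11.

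Per3, a weaker repressor, was the steadiest of the Per genes. It was at 26.7 ± 1.63 TPM on the ground and 29.8 ± 0.555 in flight in the gastrocnemius (SD, n = 3), where the flight values, 29.3 to 30.4 TPM, all lay above the ground values, 25.5 to 28.6 TPM, as for 12.5% of all genes. In the quadriceps the groups overlapped, at 25.8 ± 1.00 and 27.4 ± 3.27 TPM. The log2 difference in the gastrocnemius was 0.15 (adjusted p = 0.413 by limma).

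The cryptochromes, which hold the activator pair in check on DNA, overlapped between the groups in both muscles. Cry1 was at 6.26 ± 1.26 TPM on the ground and 5.79 ± 1.27 in flight in the gastrocnemius, and at 6.88 ± 0.464 and 6.47 ± 0.587 in the quadriceps (SD, n = 3). Cry2 was at 22.9 ± 0.164 and 23.7 ± 1.72 TPM in the gastrocnemius, and at 19.3 ± 0.899 and 22.6 ± 3.01 in the quadriceps. In the quadriceps 2 of the 3 flight mice, M12 at 23.8 and M20 at 24.9 TPM, had more Cry2 than the highest ground mouse at 20.4 TPM, while M11 had 19.2 TPM. The log2 difference of Cry2 was 0.04 in the gastrocnemius and 0.21 (95% interval -0.07 to 0.49) in the quadriceps, and that of Cry1 was -0.10 and -0.08.

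Nr1d1, which represses Arntl, was at 33.8, 36.7 and 48.3 TPM on the ground and 64.5, 35.1 and 44.6 TPM in flight in the gastrocnemius, mice in the order above. The quadriceps gave 41.3, 43.1 and 46.5 TPM on the ground and 58.7, 20.7 and 49.6 TPM in flight. The flight mice therefore enclosed all ground values in the quadriceps, with M11 at the top and M12 at the bottom, and the SD was 19.8 TPM in flight against 2.65 on the ground. The log2 difference was 0.25 in the gastrocnemius. In the quadriceps it was -0.14, and 0.30 without M12. Its relative Nr1d2 was at 94.7 ± 5.85 and 92.2 ± 6.85 TPM in the gastrocnemius and at 96.6 ± 3.89 and 103 ± 6.26 in the quadriceps, ground first (SD, n = 3).

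Dbp, a transcription factor that carries the rhythm to output genes, was at 82.7 ± 10.4 TPM on the ground and 76.4 ± 4.42 in flight in the gastrocnemius, and at 92.9 ± 8.47 and 80.5 ± 13.1 in the quadriceps (SD, n = 3). The log2 difference was -0.11 and -0.21, with overlap in both muscles and a 95% interval of -0.37 to 0.06 in the mean of both.

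**Figure D2:**
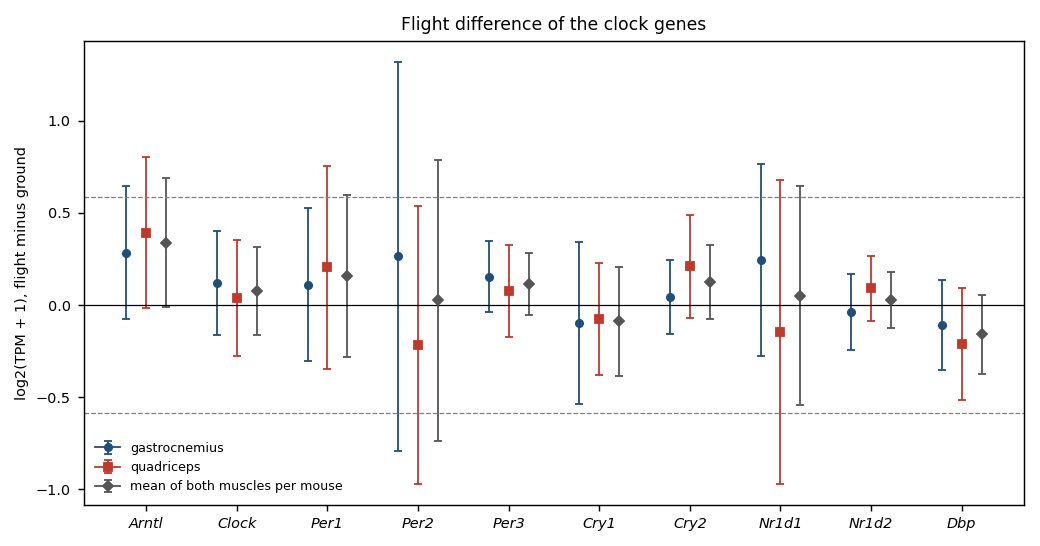
Flight minus ground on the log2(TPM + 1) scale for each clock gene, with 95% intervals from limma (3 against 3 mice). Dashed lines mark 1.5-fold. Every interval includes 0, and those of Per2 and Nr1d1 are among the widest.

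A test of the interaction, with mouse as a block, asked whether the flight difference was unequal in the muscles. None of the 10 clock genes was called or had an unadjusted p under 0.05, and of all genes 0.0% were called and 5.09% had an unadjusted p under 0.05 by limma. The largest differences between the muscles were 0.48 for Per2 (95% interval -0.36 to 1.32) and 0.39 for Nr1d1 (-0.11 to 0.89) on the log2 scale.

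Both muscles of a mouse came from the same animal, which allowed the levels to be compared within a mouse. Arntl rose and fell together in the muscles of the 6 mice, with a Pearson r of 0.966 (exact permutation p = 0.00278 over 720 pairings, adjusted p = 0.309) and a Spearman rho of 0.943 (exact p = 0.0167). Without M11 and M12, the mice farthest from the median, r was 0.843. Per1 gave r = 0.935 (exact p = 0.00833, adjusted p = 0.317) and rho = 0.886 (exact p = 0.0333), but r was 0.514 without M08 and M11, so that relation rests on those mice. Cry2 gave r = 0.892 (exact p = 0.0167, adjusted p = 0.350) and rho = 0.771 (exact p = 0.103), and r was 0.994 without M20 and M11.

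These 3 genes were the ones of the 10 with an unadjusted exact p under 0.05 and r above 0, against 9.58% of 10463 genes. Arntl was among the genes tested because of the high values of M11 in both muscles. Its r and p are therefore a description and are not weighed against this share. No clock gene passed the adjustment over all genes, and 0.0% of all genes did. The smallest p that 720 pairings allow is 0.00139. Nr1d1 had r = 0.671 (exact p = 0.150, adjusted p = 0.592) and rho = 0.886 (exact p = 0.0333), Clock r = 0.570 (exact p = 0.235), Per2 0.502 (exact p = 0.314), Cry1 0.465 (exact p = 0.325), Dbp 0.454 (exact p = 0.374) and Per3 0.336 (exact p = 0.596). Nr1d2, the most abundant, gave -0.09 (exact p = 0.835). Without the 2 farthest mice of each gene, r was 0.730 for Nr1d1, 0.549 for Per2, 0.760 for Per3 and 0.564 for Nr1d2, and turned to -0.24 for Clock, -0.39 for Cry1 and -0.16 for Dbp. The median r was 0.535 for the 10 clock genes and 0.301 for all genes. Since the former includes Arntl, it is a description and is not weighed against the latter.

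Since a shared flight difference alone would raise r, it was computed again after the mean of each group was taken off, as a description. It was then 0.952 for Cry2, 0.934 for Arntl, 0.934 for Per1, 0.803 for Nr1d1, 0.587 for Per2, 0.572 for Clock, 0.421 for Cry1, 0.280 for Dbp, 0.0792 for Per3 and 0.0605 for Nr1d2. Its median was 0.580 for the clock genes, Arntl included, and 0.177 for all genes, and these medians are likewise not weighed against each other. The 3 ground mice stood in the same order in both muscles for 4 of the 10 genes (18.4% of all genes), and the 3 flight mice for 5, Arntl among them (23.3%). Arntl is not weighed against the latter share. Both orders matched for Nr1d1 alone, against 4.78% of all genes.

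**Figure D3:**
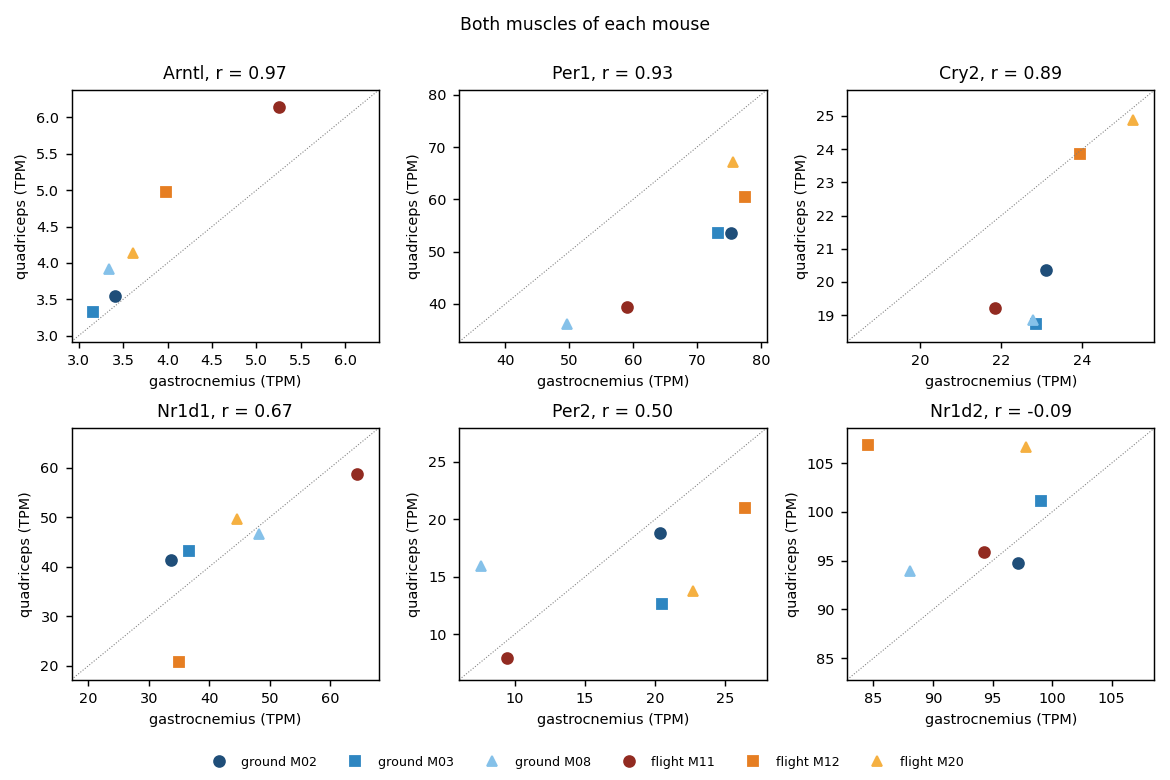
Level in the quadriceps against level in the gastrocnemius (TPM, both axes) for 6 clock genes, 1 point per mouse, with the line of equality dotted and Pearson's r on log2(TPM + 1) above each panel. Arntl, Per1 and Cry2 give r of 0.89 to 0.97, Nr1d2 gives -0.09, and all 6 Per1 points lie below the line.

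The widest deviation of a clock gene from the mean of the 6 mice of its muscle was that of Per2 in the gastrocnemius of ground mouse M08, -1.01 on the log2 scale, followed by Nr1d1 in the quadriceps of flight mouse M12, -0.96, and Per2 in the quadriceps of flight mouse M11, -0.78. Flight mouse M11 combined the highest Arntl, Clock and Nr1d1 of the 6 mice with low Per1 and Per2 in both muscles, and flight mouse M12 had the lowest Nr1d1 in the quadriceps. M11 was the highest or the lowest of the 6 mice for 5 of 10 clock genes in each muscle, where it was so for 30.7% of all genes in one and 28.2% in the other. M12 was so for 5 of 10 in each muscle too, with 43.2% and 42.3% of all genes. Arntl, tested through its high values in M11, is among the 5 of M11 and is not weighed against these shares. Ciart, a repressor of the activator pair, was likewise lowest in M11, at 13.4 TPM in the gastrocnemius and 15.6 in the quadriceps, with 20.5 to 27.2 and 27.5 to 32.4 TPM in the other mice. The Ciart promoter held 3 copies of CACGTG in the window below, more than any of the 9 clock genes with a promoter sequence did.

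Ciart (chr3:95882252-95882359, minus strand, GRCm38.p6): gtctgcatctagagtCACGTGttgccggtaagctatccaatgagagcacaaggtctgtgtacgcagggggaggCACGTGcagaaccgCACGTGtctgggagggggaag

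Nfil3, which represses through the D-box and so opposes DBP, was low in the pair of mice with low Per1: 6.54 TPM in M08 and 6.00 in M11 in the gastrocnemius against 15.1 to 21.7 in the others, and 7.08 and 7.18 against 9.12 to 27.4 in the quadriceps. The summed levels of several lists were also low in these mice. That of 14 glucocorticoid response genes was lowest in M11 (657 TPM in the gastrocnemius, 628 in the quadriceps), next lowest in M08 (749 and 782) and highest in M12 (1181 and 1306), with 904 to 1076 and 848 to 1042 in M02, M03 and M20. The summed level of 8 temperature response genes was also lowest in M11 (396 and 513) and next lowest in M08 (431 and 592). That of 8 clock-linked muscle genes was lowest in M11 (2518 and 2591) and next lowest in M08 (2901 and 2954). A sum of TPM rests mostly on its most abundant genes. In the clock-linked muscle list Tcap alone had group means of 2251 to 2364 TPM. Hspa8 alone had group means of 283 to 448 TPM in the temperature list. Pdk4, counted in both the glucocorticoid and the clock-linked muscle list, had group means of 233.3 to 276.5 TPM. In the gastrocnemius, markers of some other cell types were low in both mice too. The Schwann cell markers summed to 151 TPM in M08 and 182 in M11 against 222 to 325 in the others, and the blood markers to 383 and 351 against 517 to 817. The endothelial sum, though, was highest in M11 (106.9) and 96.02 in M08, against 82.75 to 97.63 in the others. The tendon sum was lowest in M08 (19.18) but within the range of the others in M11 (25.13). The adipocyte and macrophage sums of both mice lay within the range of the others. In the quadriceps the Schwann cell sum was lowest in M08 (58.1) and the blood sum in M11 (461), but M11 (78.4) and M08 (756) lay within the range of the others. The part of these lists in the clock gene levels was not tested. The quadriceps library of M08 stood apart, with 18172 genes detected where the other 11 had 20291 to 21265, was highest or lowest of its muscle for 48.1% of all genes, and held the highest Timeless level, 22.3 TPM against 7.75 to 13.0.

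**Figure D4:**
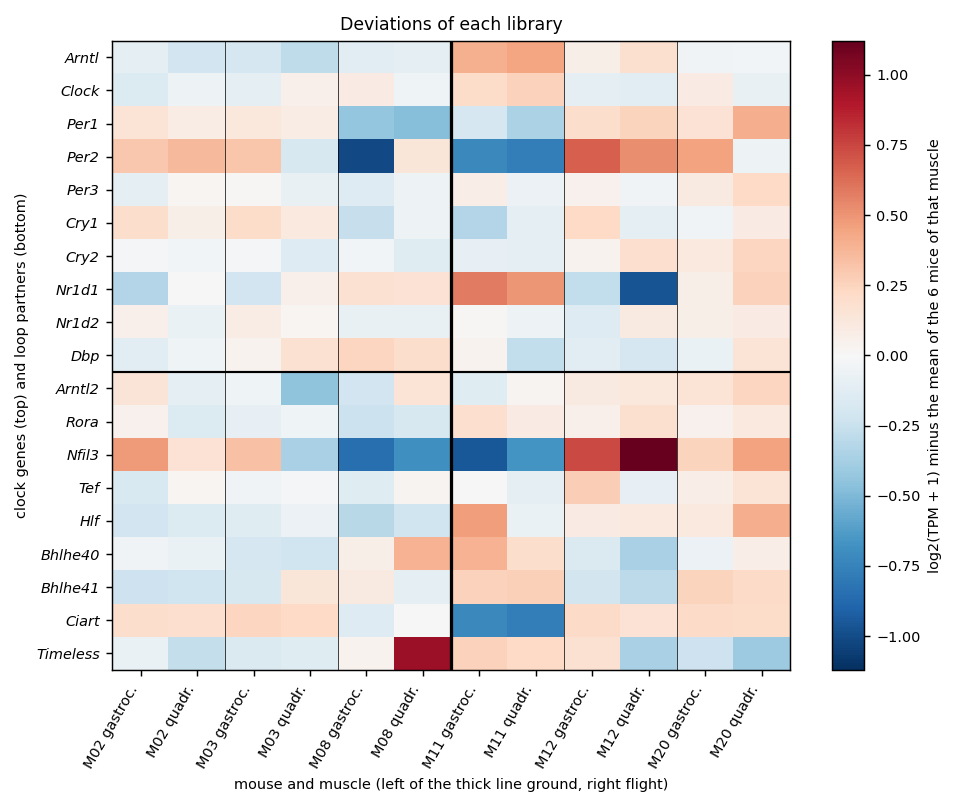
Difference of each library from the mean of the 6 mice of its muscle, in log2(TPM + 1), for the 10 clock genes and 9 of the loop partners tested (red higher, blue lower). Columns pair the muscles of each mouse. M11 is red for Arntl and Nr1d1 and blue for Per1, Per2, Nfil3 and Ciart in both muscles.

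Relations among the genes were examined over the 6 mouse means, since Arntl and its targets run out of step in the loop. The Arntl mean was 3.24 to 3.63 TPM in the ground mice and 3.87 to 5.70 in the flight mice. Each r therefore mixes the difference between the conditions with the spread among mice, and group means were not taken off here. Against Arntl, 6 of the other 9 clock genes had a negative r and 3 a positive one. The least negative was Cry2 at -0.01, and 45.7% of all genes had an r below that of Cry2. Clock had r = 0.685 (exact p = 0.142), Cry1 -0.68 (exact p = 0.129), Dbp -0.62 (exact p = 0.176) and Per2 -0.44 (exact p = 0.386). Nr1d1 had 0.357 (exact p = 0.485), Per1 -0.25 (exact p = 0.646), Nr1d2 -0.23 (exact p = 0.675), Per3 0.199 (exact p = 0.669) and Cry2 -0.01 (exact p = 0.990). The adjusted exact p over all genes was 0.979 to 0.999, and 4.29% of all genes had an unadjusted p under 0.05 while none of these 9 did. Spearman's rho ran from -0.77 for Cry1 (exact p = 0.103) to 0.60 for Per3 (exact p = 0.242). Without M11 and M12 the r of Dbp was 0.0144 and that of Per2 -0.07, so these negative values rest on those mice. It was then 0.425 for Clock, -0.57 for Cry1, 0.739 for Nr1d1, 0.791 for Cry2, 0.619 for Per3, 0.0481 for Per1 and 0.0484 for Nr1d2.

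As a description over the 12 libraries, which share 6 mice, the genes most like Arntl on log2(TPM + 1) included Vmn2r27, Dcp1b, Hoxa3 and Ccdc141, with r from 0.867 to 0.889. Those most unlike it were Ppp1r16a, Nkiras2, Dgat2, Ndufv1 and Mid1ip1, with r from -0.89 to -0.86. Those most like Dbp were Asb13, Prepl, Tnfsf12, Aptx and Lipt1, with r from 0.844 to 0.910. No clock gene was among them, Clock being the nearest to Arntl with r = 0.610. Vmn2r27, Dcp1b and Hoxa3 were low like Arntl, with means of 4.135, 4.57 and 4.81 TPM over the 12 libraries. Such genes are tested only where some library lifts them above 5 TPM, so the filter bears on their likeness to Arntl.

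The muscles themselves differed in Per1. It was higher in the gastrocnemius than in the quadriceps of all 6 mice, by 0.41 on the log2 scale (95% interval 0.27 to 0.56, adjusted p = 0.00309 by limma with mouse as a block), which is 33.1% on the scale of TPM + 1. This was under the 1.5-fold needed for a call, and no clock gene was called. Of all genes 3.33% were called and 29.0% had an adjusted p under 0.05 whatever the size, so a difference of this kind was common. Without the mouse block the same difference had an adjusted p of 0.0718.

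Cry2 was also higher in the gastrocnemius of all 6 mice, by 0.15 (adjusted p = 0.0824), as 4.96% of all genes were. Clock and Arntl were lower there in all 6 mice, by -0.20 (adjusted p = 0.0735) and -0.15 (adjusted p = 0.331), as 26.0% of all genes were. The remaining log2 differences of gastrocnemius minus quadriceps were 0.17 for Per2, 0.09 for Per3, 0.04 for Nr1d1, -0.09 for Nr1d2, -0.12 for Dbp and -0.14 for Cry1, with adjusted p from 0.254 to 0.800 by limma. Without M08 the Per2 difference was 0.40 (adjusted p = 0.0417).

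The median of all genes in this comparison was -0.11 and became 0.00 when the libraries were rescaled by their median ratio. After rescaling, Per1 differed by 0.53 (adjusted p = 0.00190), Cry2 by 0.27 (adjusted p = 0.0140) and Per3 by 0.21 (adjusted p = 0.0342), Clock by -0.08 (adjusted p = 0.478), and Nr1d2 and Dbp changed sign to 0.03 and 0.01. Schwann cell markers also moved with the muscle: all 6 were called higher in the gastrocnemius, where their summed level was 151 to 225 TPM on the ground and 182 to 325 in flight, against 58.1 to 91.8 and 65.0 to 91.5 in the quadriceps, none being at 0. Their part in the Per1 difference was not tested. In bulk muscle, fewer cells of a type and less RNA per cell cannot be told apart.

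**Figure D5:**
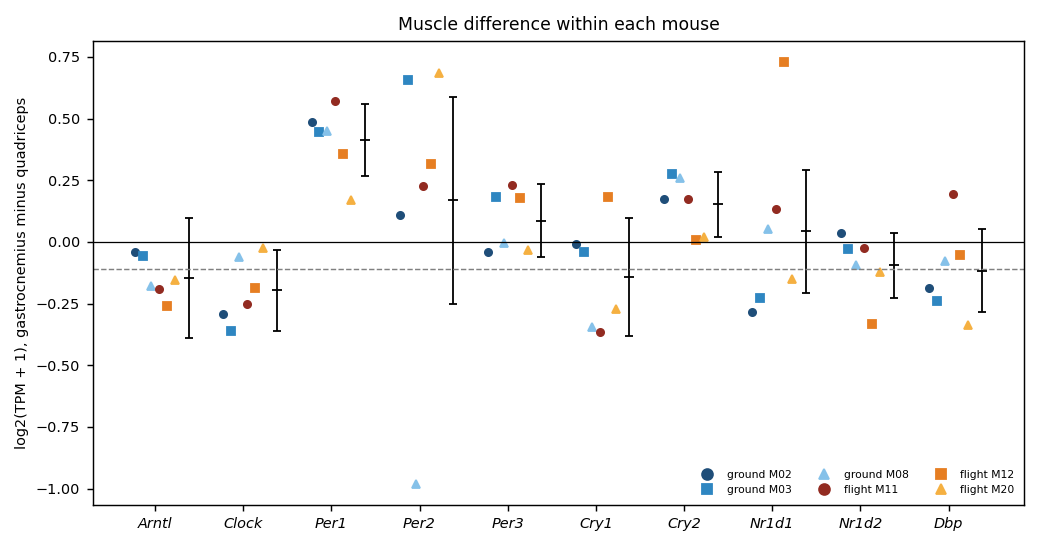
Gastrocnemius minus quadriceps on the log2(TPM + 1) scale in each of the 6 mice (points), with the mean and 95% interval from limma in black and the median of all genes as the dashed line. All 6 Per1 and all 6 Cry2 points lie above 0, and all 6 Clock and Arntl points lie below it.

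Further parts of the loop were read from a list of 12 partners, of which 10 were tested. Npas2, which can stand in for Clock, was at 0.107 to 0.692 TPM and Rorb at 0.718 to 1.65 TPM, both under the filter. In the flight comparisons 0 of the 10 were called. Hlf, an activator of the same D-box family as Dbp, was at 7.25, 7.68 and 6.69 TPM on the ground and 12.2, 9.17 and 9.30 TPM in flight in the gastrocnemius, without overlap, as for 12.5% of all genes with flight higher there. The log2 difference of Hlf was 0.44 (unadjusted p = 0.0102, adjusted p = 0.218 by limma), and 0.29 in the quadriceps (adjusted p = 0.535), where M11 lay among the ground mice. Tef, of the same family, was at 138 to 150 TPM on the ground and 156 to 187 in flight in the gastrocnemius, a difference of 0.23 (adjusted p = 0.294). In the quadriceps the Tef groups overlapped, with a 95% interval of -0.23 to 0.17.

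Rora, an activator of Arntl, was the partner that lay higher in every flight mouse of both muscles. Of all genes, 6.0% did not overlap in the same direction in both muscles. Rora was at 50.7, 45.9 and 41.3 TPM on the ground and 55.9, 51.1 and 50.8 TPM in flight in the gastrocnemius, and at 53.0, 57.1 and 52.2 against 63.1, 67.2 and 64.0 TPM in the quadriceps. The log2 differences were 0.19 (adjusted p = 0.390 by limma) and 0.26 (unadjusted p = 0.0101, adjusted p = 0.347). Between the muscles Rora and Ciart were lower in the gastrocnemius of all 6 mice, by -0.27 (adjusted p = 0.0146) and -0.26 (adjusted p = 0.0103). Bhlhe41, a repressor at the E-box, was lower there in all 6 mice too, by -0.22 (adjusted p = 0.0572). Of all genes 26.0% were lower there in all 6 mice, and 29.0% had an adjusted p under 0.05 by limma whatever the direction. The median of all genes in this muscle comparison was -0.11.

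The other partners had no unadjusted p under 0.05 for flight in either muscle. Bhlhe40, the relative of Bhlhe41, ranged from 60.5 to 107 TPM, Bhlhe41 from 23.4 to 39.0, and Arntl2, the relative of Arntl, from 6.26 to 10.8 TPM. Nfil3 had a log2 difference of 0.03 in the gastrocnemius and one of 0.60 in the quadriceps. The difference between them, -0.57, had an unadjusted p of 0.0250 (adjusted p = 0.957 by limma).

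Counts for the genes around the clock are to be read against the 15.1% of all genes with an unadjusted p under 0.05 for flight in the gastrocnemius and the 10.8% so found in the quadriceps. Of the genes that set the turnover of clock proteins, 0 of 8 tested had an unadjusted p under 0.05 for flight in either muscle, and of the clock-linked muscle genes 0 of 8. Of the clock outputs found in many tissues 0 of 7 did so in the gastrocnemius and 1 of 7 in the quadriceps. This was Ppard, a receptor that drives fat oxidation, at 9.89 to 14.9 TPM on the ground and 15.9 to 28.8 in flight (log2 difference 0.65, adjusted p = 0.426 by limma). Of 13 glucocorticoid response genes 1 did so in the gastrocnemius, Dusp1, a phosphatase, at 105 to 132 TPM on the ground and 92.9 to 102 in flight (-0.33, adjusted p = 0.237 by limma), and 0 in the quadriceps.

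Of 8 temperature response genes 2 had an unadjusted p under 0.05 in the gastrocnemius, both RNA-binding proteins known to be induced by mild cold, where 15.1% of all genes did. Cirbp was at 22.5 to 25.9 TPM on the ground and 32.6 to 34.6 in flight, a log2 difference of 0.45 (adjusted p = 0.111 by limma). Rbm3 was at 38.6 to 43.7 and 48.7 to 55.4 TPM (0.36, adjusted p = 0.171). In the quadriceps 0 of 8 did so, and Cirbp differed by 0.01 and Rbm3 by 0.08. The difference between the muscles was 0.44 for Cirbp (adjusted p = 0.957) and 0.28 for Rbm3 (adjusted p = 0.968), so it did not pass the test. None of these genes was called.

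Markers of the tissue were as labelled. The 10 muscle fiber markers summed to 77190 to 83360 TPM in the gastrocnemius and 88960 to 99500 in the quadriceps, with 2 higher and 2 lower in flight at an unadjusted p under 0.05 in each muscle. All 7 adipocyte markers tested were lower in flight in the quadriceps at an unadjusted p under 0.05, with a summed level of 334 to 635 TPM on the ground and 210 to 291 in flight, and 0 of 7 in the gastrocnemius, at 188 to 270 and 186 to 249 TPM. Of all genes 5.18% were lower in the quadriceps at that threshold. None of the 7 markers was called there, the smallest adjusted p being 0.244 by limma. Leptin, an adipocyte marker under the filter, was listed at 0 in the lowest ground quadriceps library. Their part in the quadriceps values of the clock genes was not tested. Of 5 blood, 6 Schwann cell, 5 endothelial, 3 tendon and 3 macrophage markers tested, 0 had an unadjusted p under 0.05 for flight in either muscle.

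Splicing of the clock genes was read from the junction reads of the deposited tables, where the 3 samples of each group carry no names. Each muscle had 5 skipped exon events in 4 of the clock genes, in Per1, Per2, Per3 (2 events) and Dbp, and no mutually exclusive exon event. With 3 samples against 3 an exact permutation test allows no two-sided p under 0.1, and the 10 comparisons gave exact p from 0.2 to 1. The event with the lowest p was an exon of Per3 of 107 bases at chr4:151029136-151029242 on the minus strand of GRCm38, exon 8 of 21 in an annotated coding transcript and coding throughout. Its length is not a multiple of 3, so that skipping it shifts the reading frame. The same holds for the 797-base exon of Per2 and the 116-base exon of Per3 given further below.

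Per3 exon 8: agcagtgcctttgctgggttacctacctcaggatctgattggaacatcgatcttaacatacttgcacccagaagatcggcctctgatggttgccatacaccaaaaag

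Its percent spliced in (PSI, the share of transcripts that keep the exon, from junction reads per effective length) was 63.6% ± 11.8 on the ground and 50.03% ± 8.62 in flight in the gastrocnemius (SD, n = 3, exact p = 0.2). In the quadriceps it was 83.3% ± 28.9 and 62.2% ± 20.6 (SD, n = 3, exact p = 0.3). Each sample had 13 to 56 junction reads for this exon, and the groups overlapped in both muscles.

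The 797-base exon of Per2 (chr1:91423690-91424486) was at 88.2% ± 10.8 and 75.5% ± 16.9 in the gastrocnemius and at 95.2% ± 8.25 and 81.7% ± 23.2 in the quadriceps, ground first (SD, n = 3), from 5 to 26 junction reads per sample. The other exon of Per3, of 116 bases (chr4:151018218-151018333), ran from a mean of 79.1% to 100%. The 180-base exon of Per1 (chr11:69104634-69104813) and the 111-base exon of Dbp (chr7:45706606-45706716), both whole codons in length, had means of 94.2% to 99.3% in all 4 groups.

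Some values carry limits from overlapping genes on GRCm38 (GENCODE vM21). Nr1d1 (chr11:98767932-98775333, minus strand) shares 1075 bases with Thra on the opposite strand, and Dbp (chr7:45705088-45710203, plus strand) shares 737 bases with Sphk2. On the same strand, Per3 (chr4:151003652-151044665) lies inside Camta1, listed at 15.6 to 29.5 TPM, and Clock (chr5:76209868-76304792) spans 459 bases of the pseudogene Ube2n-ps1, listed at 20.2 to 49.4 TPM. The stretches of 31 bases of their transcripts that also occur in reverse in another gene made up 7.85% for Nr1d1 and 16.9% for Dbp. For Nr1d2, 9.51% of such stretches occur in other genes on the same strand. For Arntl, Clock, Per1, Per2, Per3 and Cry1 these shares were all under 1%, and for Cry2 3.99% in reverse. The libraries were stranded, but the strand setting of the quantification is not given in the sources used here. TPM carries no counting depth, so the precision of each level rests on the spread between 3 mice.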

How the data were processed

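Libraries were made with a stranded mRNA protocol and sequenced by the authors, who estimated transcript abundance as TPM with kallisto 0.46.0 (version per the labels' processing notes) with tximport giving gene totals. TPM values deposited for a library sum to between 923295 and 966638. For splicing, the authors aligned to mm10 (GRCm38) with STAR 2.7.1a and ran rMATS-turbo. Their deposited tables hold inclusion and skipping junction read counts and effective lengths, from which PSI was recomputed; the columns of the authors' own comparisons were not used, nor were the mutually exclusive exon tables, apart from a search for clock genes. The authors' DESeq2 step needs counts and was not repeated on TPM.

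Members and gene lists were chosen with earlier results of these data known. Genes with TPM above 5 in at least 1 library (10481) were tested by limma 3.58.1 in R 4.3.3 (trend, two-sided) on log2(TPM + 1), with Benjamini-Hochberg adjustment over all genes, and called at an adjusted p under 0.05 and over 1.5-fold. Folds on this scale understate changes of low genes. The muscle difference and the interaction had mouse as a block, as the animal number in the titles pairs the muscles. Over genes, deviations of the 2 muscles of a mouse from their group means correlated with r of -0.12 to 0.33. For muscles of different mice of a condition r was -0.32 to 0.18. The gastrocnemius of M03, M12 and M20 had a higher r with another mouse's quadriceps (0.1253, 0.1793 and 0.151) than with its own (0.01425, 0.1786 and -0.1186). Correlations over 6 mice used exact permutation (SciPy 1.17.1, NumPy 2.4.6). Replicates are separate mice. The fit was tested on simulated data: of genes changed by 1 on the log2 scale, 76% were recovered in the gastrocnemius, 71.5% in the quadriceps and 42.5% for the interaction. The simulated muscles of a mouse were independent, and smaller changes were not simulated. Named were all 10 clock genes, all loop partners, list genes other than tissue markers with an unadjusted p under 0.05 for flight, and the 5 nearest and farthest by r. Of these, 2 genes are not reported here. Lists covered loop partners, clock protein turnover, clock outputs, clock-linked muscle genes, glucocorticoid and temperature response, and markers of muscle fiber, adipocyte, blood, Schwann cell, endothelium, tendon and macrophage.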

Additional observations from a re-analysis of the deposited data

How the results depend on the processing

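The counts of all genes called depended on the settings, while no clock gene was called in a flight comparison under any of them. In the gastrocnemius 24 genes were called. This became 4 with no filter on low values, 4 with a filter of TPM above 1, 5 without a trend, 0 with a replicate block on the shared replicate numbers, and 1 to 133 when 1 mouse was left out. In the quadriceps 3 genes became 1 with the filter of TPM above 1, 1 with rescaling by the median ratio, 1 without a trend, 0 with the replicate block, and 1 to 4 with 1 mouse left out. For the mean of both muscles 13 became 6 with a pseudocount of 0.1, 0 with no filter, 3 with TPM above 1, 32 with rescaling, 0 without a trend, 3 with the replicate block, and 0 to 134 with 1 mouse left out. The interaction gave 0, or 2 with no filter, and 0 to 1 with 1 mouse left out. The muscle comparison gave 349, and 305 to 374 with 1 mouse left out. Ground and flight mice share only a number: same-numbered mice correlated with r of -0.14 to 0.11 in the gastrocnemius and -0.18 to -0.07 in the quadriceps. On the log2 scale, rescaling turned the muscle difference of Nr1d2 to 0.02757 and of Dbp to 0.005218. Leaving out 1 mouse turned the sign of differences near 0. In the gastrocnemius flight differences ran from -0.2522 to 0.0398 for Cry1, -0.08093 to 0.2333 for Per1, -0.09032 to 0.02117 for Nr1d2, -0.1751 to 0.6929 for Per2 and -0.002634 to 0.09752 for Cry2. In the quadriceps they ran from -0.4271 to 0.3012 for Nr1d1, -0.01884 to 0.1269 for Per3, -0.08416 to 0.1059 for Clock and -0.5275 to 0.1208 for Per2. For the mean of both they ran from -0.2058 to 0.3735 for Nr1d1, -0.0313 to 0.332 for Per1, -0.009082 to 0.0588 for Nr1d2, -0.01803 to 0.1554 for Clock and -0.2645 to 0.4068 for Per2. The muscle difference ran from -0.08052 to 0.1399 for Nr1d1 and -0.01415 to 0.3952 for Per2, and the interaction from -0.1875 to 0.08644 for Cry1, -0.1974 to 0.003456 for Per1 and -0.02733 to 0.2395 for Dbp. Arntl stayed above 0 in the flight comparisons under each of these. The cause was not tested where a value changed.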
